A study of Mus musculus with 6 samples.

Results

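Chromatin accessibility was compared between wild-type and Hox13-/- distal forelimb buds around 8 genes of the skeleton and joints, Gdf5, Runx1, Runx2, Runx3, Acan, Ihh, Pthlh and Scx. ATAC-seq, in which the transposase Tn5 inserts adapters into open chromatin, gave a table of 61954 peaks on the 19 autosomes (mm10). A peak was taken as belonging to one of the 8 genes when its midpoint lay inside the gene or within 150 kb of the gene's GENCODE start, which selected 126 peaks, and no peak fell to more than 1 of the genes. The choice rests on position alone, so nothing in these data shows that a peak acts on the gene it is listed under. All libraries came from mouse embryos at E11.5 on a mixed C57Bl/6 and 129 background, and a library used 50000 cells taken from both forelimb buds of 1 embryo, pooled. The wild-type group had 2 libraries and the Hox13-/- group had 2, and in the latter both Hoxa13 and Hoxd13 are inactivated, by the Hoxa13 Str and Hoxd13 lacZ alleles. Proximal limb bud libraries, 2 in number, also belong to the series and were not analysed here.

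Endochondral bones form from mesenchymal condensations that turn into cartilage and are then replaced by bone. Runx2 is the main transcription factor of the bone-forming lineage and, with Runx3, drives chondrocytes to hypertrophy, and Runx1 acts early in the same lineage and in blood formation. Ihh and the parathyroid hormone-related protein encoded by Pthlh form a feedback loop that sets the pace of chondrocyte maturation. Gdf5, a ligand of the bone morphogenetic protein family, marks the cells that form joints, Scx is a transcription factor of tendon progenitors, and Acan encodes aggrecan, the large proteoglycan of cartilage matrix. HOXA13 and HOXD13 pattern the digits.

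A few of the peaks described below were chosen to show the DNA itself, the strongest lower and higher peaks of these genes that lie outside exons and kept their call whichever library was left out. Each line gives 300 bases around the peak's midpoint, plus strand of GRCm38 (mm10), 5′ to 3′, with the HOX13 motif cores AATAAA or CGTAAA, on either strand, in capitals.
Gdf5 lower peak, chr2:155863092-155863391: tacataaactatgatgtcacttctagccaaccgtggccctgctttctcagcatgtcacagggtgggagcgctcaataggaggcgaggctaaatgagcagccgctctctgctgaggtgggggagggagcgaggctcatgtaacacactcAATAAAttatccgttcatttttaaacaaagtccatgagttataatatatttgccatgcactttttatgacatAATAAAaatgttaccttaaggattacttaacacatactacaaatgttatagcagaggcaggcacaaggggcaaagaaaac
Runx3 lower peak, chr4:135025623-135025922: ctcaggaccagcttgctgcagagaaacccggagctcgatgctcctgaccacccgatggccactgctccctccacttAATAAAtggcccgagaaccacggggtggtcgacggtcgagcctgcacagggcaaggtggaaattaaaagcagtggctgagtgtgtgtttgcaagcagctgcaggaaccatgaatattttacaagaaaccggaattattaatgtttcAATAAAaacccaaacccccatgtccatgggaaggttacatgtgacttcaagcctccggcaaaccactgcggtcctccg
Pthlh higher peak, chr6:147145405-147145704: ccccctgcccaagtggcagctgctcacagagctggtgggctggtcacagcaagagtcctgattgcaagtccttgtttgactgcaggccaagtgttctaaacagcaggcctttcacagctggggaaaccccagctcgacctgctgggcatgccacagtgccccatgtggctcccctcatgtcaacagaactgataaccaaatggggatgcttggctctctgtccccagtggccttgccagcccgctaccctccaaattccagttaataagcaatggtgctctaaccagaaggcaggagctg
Runx2 higher peak, chr17:44709910-44710209: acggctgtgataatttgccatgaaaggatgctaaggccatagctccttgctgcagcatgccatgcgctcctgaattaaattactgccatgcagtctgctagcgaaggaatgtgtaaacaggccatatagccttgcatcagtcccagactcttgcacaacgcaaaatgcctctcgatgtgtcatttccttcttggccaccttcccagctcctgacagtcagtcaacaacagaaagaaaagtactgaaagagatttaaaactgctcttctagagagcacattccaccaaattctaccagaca
Runx3 higher peak, chr4:135222235-135222534: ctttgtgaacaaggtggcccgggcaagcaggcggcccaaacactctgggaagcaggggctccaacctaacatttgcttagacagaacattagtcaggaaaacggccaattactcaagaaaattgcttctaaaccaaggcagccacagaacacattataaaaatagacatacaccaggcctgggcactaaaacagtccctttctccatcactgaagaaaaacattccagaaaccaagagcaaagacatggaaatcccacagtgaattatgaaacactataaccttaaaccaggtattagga
The windows of the Gdf5 and Runx3 lower peaks each held AATAAA at 2 places. The 3 windows of higher peaks held no match to either core. Over all peaks AATAAA was in 32.2% of those called lower and 30.1% of those called higher. The windows of the called lower peaks of Acan and Ihh, not shown here, held none. A match is a run of letters and was not tested for binding.

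Accessibility was given as rLog values, on a log2 scale adjusted for library size and shrunk towards the mean of each peak. Because they hold no read numbers, the depth at a given peak is not known. Differences are Hox13-/- minus wild type on the rLog scale, tested at every peak with limma (two-sided, Benjamini-Hochberg over all 61954 peaks) and called at an adjusted p under 0.05. With 2 libraries against 2, an exact permutation test of a single peak cannot give a two-sided p below 0.333, so the calls rest on the spread that limma shares between peaks. At the 126 peaks replicates differed by 0.184 (wild type) and 0.201 (Hox13-/-) as a root mean square, where all peaks gave 0.180 and 0.176. Promoter peaks of the limb mesenchyme markers Prrx1, Prrx2, Twist1, Msx1, Lhx9 and Tbx5 were present for 6 of 6 genes, with wild-type means of 2.91 to 6.89. Fewer genes marking other cells had one: 2 of 4 for endothelium (not Pecam1 or Cdh5), 1 of 5 for blood, 2 of 5 for muscle precursors and 2 of 5 for ectoderm. The endothelial Kdr and Tek peaks, at 6.69 and 5.70 in wild type, stood high within the mesenchyme range. Levels were 3.13 for blood, 4.16 to 4.54 for muscle precursors and 2.80 to 3.56 for ectoderm. Of the marker promoter peaks only 1 of Twist1 was called (−0.40). The table measures accessibility, so loss of HOX13 protein was not checked here.

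Of the 126 peaks, 9 were less accessible and 10 were more accessible in Hox13-/- distal limb buds, and 107 were not called. That is 7.14% lower and 7.94% higher, against 8.31% and 11.4% of all peaks, so the 8 genes together held no larger share of changed peaks than the table as a whole. The buds were measured in bulk, so fewer cells with an open site and less opening per cell cannot be told apart. Every gene had at least 1 called peak among its 7 to 27 peaks, where 19.7% of all peaks were called. The calls of Acan (1), Gdf5 (3), Ihh (2) and Scx (1) were all lower, those of Pthlh (2) and Runx2 (2) all higher, and Runx1 and Runx3 had both. So few calls do not give a gene a direction. At an unadjusted p under 0.05, 20 of the 126 were lower and 17 higher, against 9229 and 10480 of all 61954 peaks. In all 19 called peaks the libraries of the 2 genotypes were apart, as they were at 33 peaks lower and 30 higher in Hox13-/-, against a background of 29.6% and 29.7% of all peaks. The largest difference was 0.85 in size and none passed 2-fold, which 0.224% of all peaks did towards lower and 0.313% towards higher. The smallest called difference was 0.36 in size and the largest difference not called was 0.32. With each library centred on its median, 15 were lower and 10 higher, which moves the higher share of calls from 52.6 to 40% (from 57.8 to 46.9% over all peaks).

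**Figure D1:**
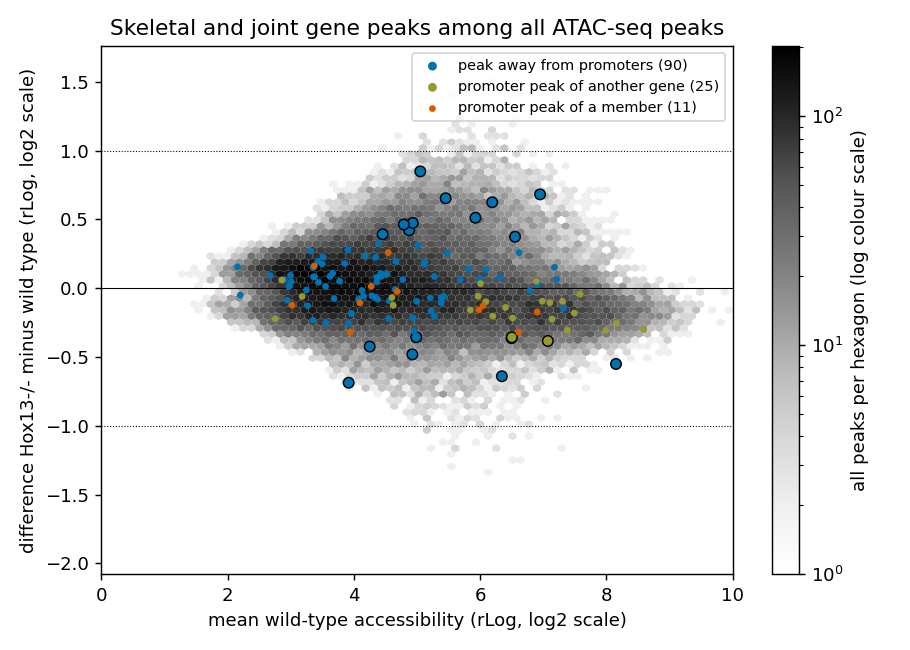
Difference Hox13-/- minus wild type (rLog, log2 scale) against the wild-type mean (rLog), with all peaks as grey hexagons, the 126 peaks of the 8 genes as coloured points, and called peaks as larger points ringed in black. The dotted lines mark 2-fold, which no coloured point reaches. The 118 peaks with a wild-type mean above 10 lie beyond the axis.

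The 126 peaks fell into 3 classes. There were 11 promoter peaks, with the midpoint within 1 kb of a transcript start of the gene itself, 25 promoter peaks of neighbouring protein-coding genes, and 90 peaks away from promoters. None of the 11 promoter peaks was called in either direction, where 8.7% of all promoter peaks were lower and 0.85% higher. At an unadjusted p under 0.05, 2 of the 11 were lower and 1 higher, against 3391 and 291 of all 17295 promoter peaks. The median difference of the 11 was −0.12, as was that of all promoter peaks. At the promoters of neighbouring genes 2 of 25 were lower and none higher (7 lower and none higher at an unadjusted p under 0.05). The difference was below 0 at 22 of 25 (88%, median −0.14) and at 76.2% of all promoter peaks. Away from promoters 7 of 90 were lower and 10 were higher, against 8.16% and 15.4% of all 44659 such peaks, with medians of 0.063 and 0.060. Of the 19 called peaks 7 lie inside a gene of the 8, 5 of them in Runx1 and 2 in Runx2. The other 12 lie outside, and for 10 of these the nearest protein-coding start is that of another gene. Leaving out each library in turn, 8 of the 19 kept their call every time, 3 lower and 5 higher, and 11 lost it at least once.

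**Figure D2:**
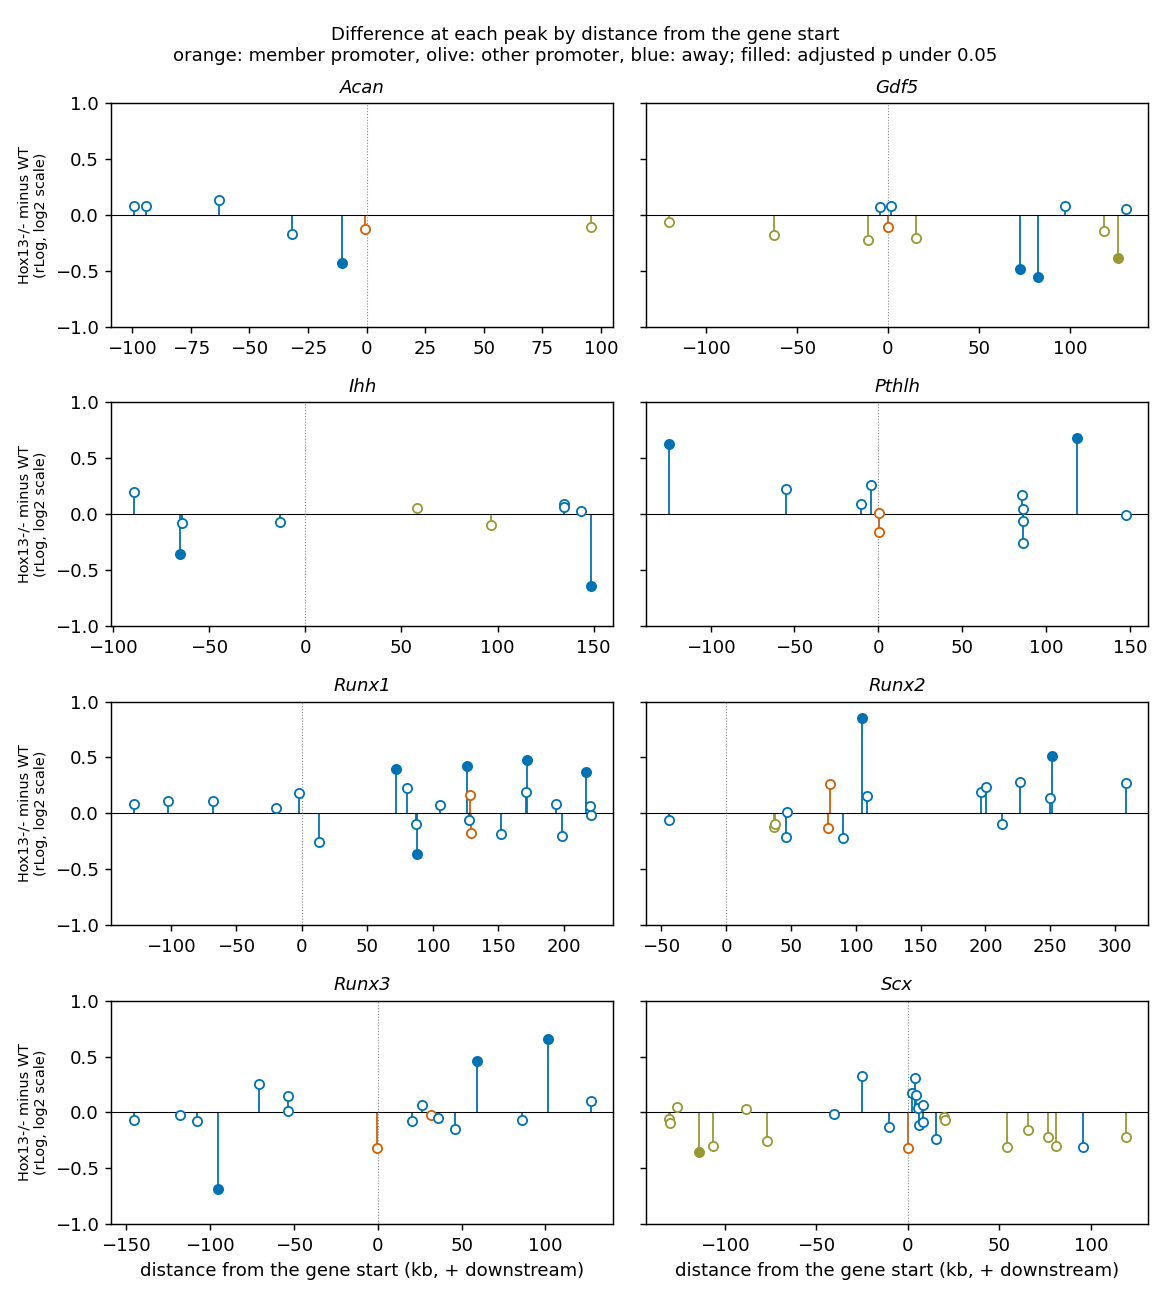
Difference Hox13-/- minus wild type (rLog, log2 scale) at each peak against its distance from the start of its gene in kb, 1 panel per gene, with promoter peaks in orange, promoters of other genes in olive and the remaining peaks in blue. Filled points are called (adjusted p under 0.05). The called points of Acan, Gdf5, Ihh and Scx, 1 to 3 per gene, all lie below 0 and those of Pthlh and Runx2, 2 per gene, all above.

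No promoter peak of the 8 genes passed the test, and their wild-type levels spanned a wide range. To compare levels between genes, the wild-type rLog was taken per kb of peak length. On that scale the inner promoter of Runx1 stood highest, at 8.48, above 98.0% of all peaks, followed by the Scx promoter at 7.37 (above 79.2%). The Runx2, Pthlh and Gdf5 promoters followed at 7.00, 6.99 and 6.94, an order that their replicate SDs of 0.029, 0.17 and 0.13 do not separate. The inner and outer Runx3 promoters stood at 6.64 and 6.44. The Acan promoter, at 6.18, was above only 18.0% of peaks, and the lesser promoter peaks of Pthlh, Runx1 and Runx2 lay between 6.08 and 6.26. Ihh had no promoter peak and no peak inside the gene, whereas 62.4% of 20807 protein-coding genes had a promoter peak. Acan, too, had no peak inside its gene.

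The promoter peaks nearest to a call were those of Runx3 and Scx. At the outer Runx3 promoter (chr4:135119878-135120054, 0.7 kb upstream of the start) rLog was 3.99 and 3.89 in wild type against 3.62 in both Hox13-/- libraries. The genotypes did not overlap there, with a difference of −0.32 (95% interval −0.56 to −0.075, limma adjusted p = 0.052). The Scx promoter (chr15:76457321-76457912), which also lies in an intron of Bop1, had values of 6.56 and 6.67 in wild type against 6.35 and 6.24 in Hox13-/-. It too had no overlap and a difference of −0.32 (95% interval −0.57 to −0.069, limma adjusted p = 0.059). Both peaks were called lower with the libraries centred on their medians, with quantile normalization and with only the upper 75% of peaks by mean value tested, and Runx3 also with cyclic loess normalization, with adjusted p between 0.028 and 0.048. The second Runx3 promoter peak, at the inner start 31.7 kb downstream, had 4.64 and 4.73 against 4.71 and 4.62, and its genotypes overlapped (−0.024, 95% interval −0.28 to 0.23, limma adjusted p = 0.92).

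Runx1 and Runx2 are each transcribed from an outer and an inner promoter, and their promoter peaks lay at inner starts. The main Runx1 promoter peak (chr16:92697261-92697595), 128.7 kb downstream of the gene's outermost start, had 7.00 and 6.80 in wild type against 6.76 and 6.70 in Hox13-/-, a difference of −0.17 (95% interval −0.42 to 0.077, limma adjusted p = 0.35). A smaller peak beside it went from 3.38 and 3.36 to 3.67 and 3.39 (0.16, 95% interval −0.074 to 0.40, adjusted p = 0.36). At Runx2 the peak 78.5 kb downstream (chr17:44736064-44736578) had 6.03 and 6.07 in wild type against 5.88 and 5.96 in Hox13-/- (−0.13, 95% interval −0.38 to 0.13, limma adjusted p = 0.52). The next Runx2 promoter peak, at 80.1 kb, had the only promoter difference above 0.2, with 4.45 and 4.63 against 4.90 and 4.71 (0.26, 95% interval 0.0024 to 0.52, limma adjusted p = 0.15). The genotypes were apart at all 4 of these peaks, and none was called. Of the 11 promoter peaks, both Hox13-/- libraries lay below both wild-type ones at 4 (36.4%) and above them at 2 (18.2%). The shares over all promoter peaks were 44.9% and 7.59%.

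The remaining promoter peaks overlapped between genotypes. Gdf5 had 4.00 and 4.19 in wild type against 3.97 and 4.00 in Hox13-/- (−0.11, 95% interval −0.36 to 0.14, limma adjusted p = 0.60). The Pthlh peak at the start had 6.10 and 5.86 against 5.89 and 5.75 (−0.16, 95% interval −0.41 to 0.097, limma adjusted p = 0.42), and the one 0.6 kb into the gene had 4.34 and 4.21 against 4.26 and 4.32 (0.014, 95% interval −0.24 to 0.27, limma adjusted p = 0.95). The Acan promoter peak had the widest replicate spread, with 2.77 and 3.27 in wild type against 2.81 and 2.99 in Hox13-/- (−0.12, 95% interval −0.34 to 0.096, limma adjusted p = 0.47). Its difference was −0.37 and called without wild-type replicate 1 (limma adjusted p = 0.043), and 0.13 without wild-type replicate 2.

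**Figure D3:**
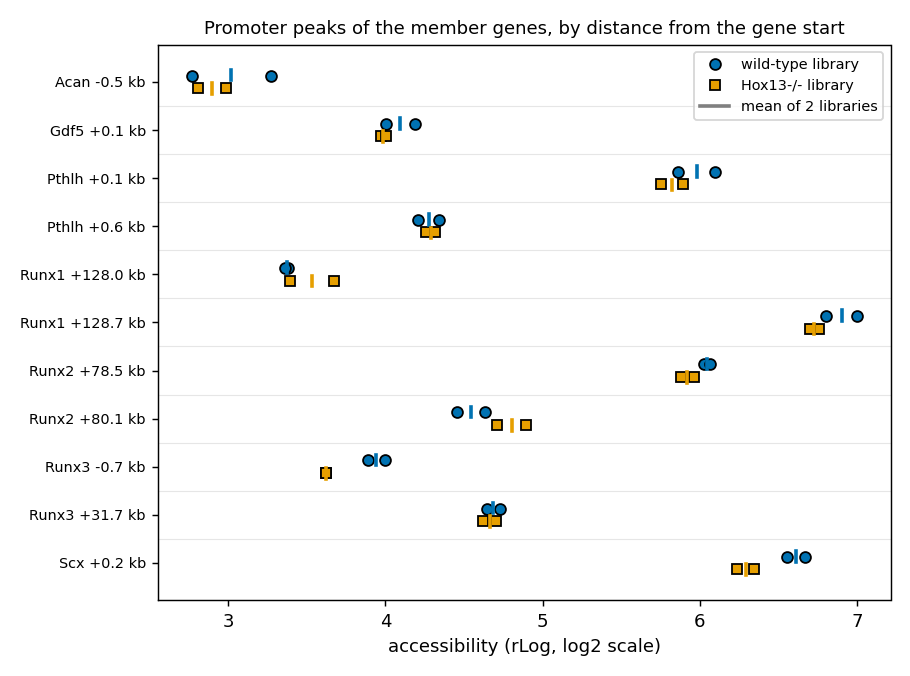
Accessibility (rLog, log2 scale) of the 11 promoter peaks in each library, with wild-type libraries as circles, Hox13-/- libraries as squares and the mean of 2 libraries as a short bar. Peaks are labelled by gene and distance from the gene's start in kb. The genotypes are apart at the outer Runx3 promoter, at Scx and at all Runx1 and Runx2 peaks. They overlap at Gdf5, Acan, Pthlh and the inner Runx3 promoter.

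Around Gdf5 the called changes were losses on the downstream side. The introns of Uqcc1, a gene downstream, are known to hold enhancers of Gdf5. Both called peaks away from promoters lay in Uqcc1 introns, and for both the nearest protein-coding start was that of Fam83c. Whether they overlap those enhancers was not tested. The stronger was also the most accessible of the Gdf5 peaks away from promoters (chr2:155862748-155863735, 82.1 kb downstream), in wild type above 95.7% of all peaks per kb of length. Its rLog was 8.04 and 8.26 in wild type against 7.67 and 7.53 in Hox13-/-. Both mutant libraries lay below both wild-type ones, and the mean difference was −0.55 (SE 0.12, limma adjusted p = 1.5e-04), or 0.683 of the wild-type level on the shrunken scale. The second (chr2:155873057-155873322, 72.2 kb downstream) had 5.07 and 4.78 in wild type against 4.45 and 4.43 in Hox13-/-. That difference was −0.48 (SE 0.13, limma adjusted p = 0.0027), and −0.34 and not called without wild-type replicate 1 (adjusted p = 0.17). Another called peak, the promoter of BC029722 126.2 kb downstream, was outside the naming rule and was picked after its values were seen. There 7.03 and 7.11 fell to 6.59 and 6.79 (−0.38, limma adjusted p = 0.018). It was not called without wild-type replicate 2 (−0.34, adjusted p = 0.11) or Hox13-/- replicate 1 (−0.28, adjusted p = 0.25). The 4 other peaks away from promoters, among them one in the Gdf5 intron and one 4.2 kb upstream, differed by 0.051 to 0.083, none called. The 5 other promoters of neighbours differed by −0.22 to −0.06.

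The introns of Nhej1, the gene upstream of Ihh, are known to hold limb enhancers of Ihh. Of the 8 peaks away from promoters, 2 fell. One is 65.4 kb upstream in an intron of Nhej1 (chr1:75016972-75017172), with 4.84 and 5.13 in wild type against 4.58 and 4.68 in Hox13-/-. The genotypes did not overlap, and the difference was −0.36 (SE 0.13, limma adjusted p = 0.037). This call held only without wild-type replicate 1. Without wild-type replicate 2, Hox13-/- replicate 1 and Hox13-/- replicate 2 the difference was −0.21, −0.31 and −0.41, with adjusted p of 0.43, 0.21 and 0.078. The larger loss was 148.4 kb downstream, just inside the window, in an exon of Wnt10a (chr1:74803117-74803509), which encodes a WNT ligand and whose start is the nearest. It had 6.36 and 6.33 in wild type against 5.72 and 5.69 in Hox13-/-, a difference of −0.64 (SE 0.13, limma adjusted p = 1.9e-05), and kept its call whichever library was left out. The Ihh peak with the highest wild-type level away from promoters (chr1:74808012-74808532, 143.4 kb downstream) overlapped between genotypes, with 6.78 and 7.04 against 7.05 and 6.83 (0.027, limma adjusted p = 0.90). With median centring that difference was −0.0073. The 6 peaks away from promoters that were not called differed by −0.075 to 0.20.

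Of the 10 Pthlh peaks away from promoters, 2 were called higher and none lower, against 15.4% and 8.16% of all such peaks. At an unadjusted p under 0.05, 3 were higher and 1 lower. Both called peaks lay in intergenic sequence more than 100 kb from the gene on either side, nearer to the start of another gene. Downstream at 118.6 kb (chr6:147145224-147145884) the values were 6.87 and 7.03 in wild type against 7.60 and 7.67 in Hox13-/-. It was the most accessible Pthlh peak away from promoters in wild type and rose further, by 0.68 (SE 0.13, limma adjusted p = 2.0e-06), or 1.60-fold. Upstream at 124.7 kb (chr6:147388547-147389283) rLog went from 6.07 and 6.31 to 6.66 and 6.97. The genotypes were again apart, with a difference of 0.63 (SE 0.13, limma adjusted p = 2.6e-05), and both calls held whichever library was left out. The 8 other peaks away from promoters differed by −0.26 to 0.26, and a group of 4 near 86 kb downstream held differences of both signs.

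The called Runx2 peaks were 2 gains. The largest change at any of the 126 peaks was in a Runx2 intron, 104.7 kb from the gene's start (chr17:44709897-44710222), where rLog was 5.00 and 5.10 in wild type against 5.89 and 5.91 in Hox13-/-. The replicates of each genotype lay close together and far from the other genotype, with a difference of 0.85 (SE 0.13, limma adjusted p = 5.8e-09), or 1.80-fold. By limma p it ranked 789th of all peaks. A second intronic peak, 251.3 kb from the start (chr17:44563141-44563834), had the highest wild-type level of the Runx2 peaks away from promoters, 5.90 and 5.95, and was 6.46 and 6.41 in Hox13-/-. It was higher by 0.51 (SE 0.13, limma adjusted p = 9.7e-04). Both calls held whichever library was left out. The 11 other Runx2 peaks away from promoters differed by −0.22 to 0.28, 7 of them above 0. No Runx2 peak was called lower and none was at an unadjusted p under 0.05, although 1 was called lower without Hox13-/- replicate 1. The promoter peaks of Supt3, which overlaps Runx2, differed by −0.12 and −0.09, neither called.

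Runx1 had the most peaks within the gene and changes of both signs, none of which kept its call under every omission of a library. The 4 higher peaks were intronic. The peak 172.1 kb from the start (chr16:92653882-92654254) had 4.98 and 4.89 in wild type against 5.31 and 5.50 in Hox13-/-, a difference of 0.47 (SE 0.13, limma adjusted p = 0.0031). It was 0.43 without wild-type replicate 2 (adjusted p = 0.053) and 0.38 without Hox13-/- replicate 2 (adjusted p = 0.11), neither called. The genotypes were also apart 126.0 kb from the start, 2.9 kb upstream of an inner start (chr16:92700014-92700382), with 4.70 and 5.05 against 5.25 and 5.35 (0.42, SE 0.13, limma adjusted p = 0.011). Without wild-type replicate 1 that fell to 0.24 (adjusted p = 0.34), and without Hox13-/- replicate 2 to 0.37 (adjusted p = 0.11). The Runx1 peak with the highest wild-type level away from promoters, 216.9 kb from the start (chr16:92608868-92609553), rose from 6.60 and 6.51 to 6.91 and 6.94 (0.37, SE 0.13, limma adjusted p = 0.022), and was called only without wild-type replicate 1. It was 0.33, 0.39 and 0.36 without wild-type replicate 2, Hox13-/- replicate 1 and Hox13-/- replicate 2 (adjusted p = 0.13, 0.093 and 0.12). The fourth, 72.1 kb from the start and outside the naming rule, had 4.32 and 4.59 in wild type and, above both, 4.88 and 4.81 in Hox13-/- (0.39, limma adjusted p = 0.019). It kept its call only without wild-type replicate 2. It was 0.25, 0.36 and 0.43 without wild-type replicate 1, Hox13-/- replicate 1 and Hox13-/- replicate 2 (adjusted p = 0.33, 0.13 and 0.057).

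The lower Runx1 peak lay 87.5 kb from the start (chr16:92738349-92738899), between higher ones. Its values were 6.47 and 6.53 in wild type against 6.08 and 6.19 in Hox13-/-. The genotypes were apart, and the difference was −0.36 (SE 0.13, limma adjusted p = 0.029), but with any 1 library left out, wild-type replicate 1 or 2 or Hox13-/- replicate 1 or 2, it ranged from −0.42 to −0.31 and was not called (adjusted p from 0.066 to 0.20). Its 300-base window held 1 AATAAA. The 16 other Runx1 peaks away from promoters differed by −0.25 to 0.23.

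Runx3 had a strong loss upstream and gains downstream. The loss was at an intergenic peak 94.9 kb upstream (chr4:135025670-135025874), about as far from Runx3 as from Syf2. It was among the weaker peaks in wild type, at 3.85 and 3.98, and stood at 3.22 and 3.24 in Hox13-/-. The difference of −0.69 (SE 0.12, limma adjusted p = 7.5e-07), or 0.621 of the wild-type level, was the largest loss at the 126 peaks, and its call held whichever library was left out. With only the upper 50% of peaks by mean value kept, this peak was not tested. The larger gain lay 101.7 kb downstream in an intron of Clic4 (chr4:135222139-135222630), with 5.34 and 5.57 in wild type against 6.07 and 6.14 in Hox13-/- (0.65, SE 0.13, limma adjusted p = 1.3e-05), and also kept its call. An intergenic peak 59.4 kb from the start, just past the end of Runx3 (chr4:135179839-135180265), went from 4.61 and 4.97 to 5.15 and 5.36, without overlap (0.46, SE 0.13, limma adjusted p = 0.0042). It was not called without wild-type replicate 1 (0.28, adjusted p = 0.25) or Hox13-/- replicate 2 (0.36, adjusted p = 0.13). Inside the gene nothing was called. The intronic peak with the highest wild-type level (chr4:135166418-135167152) had 7.41 and 7.23 against 7.29 and 7.06 (−0.15, limma adjusted p = 0.44). The 12 uncalled Runx3 peaks away from promoters ranged from −0.15 to 0.26.

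**Figure D4:**
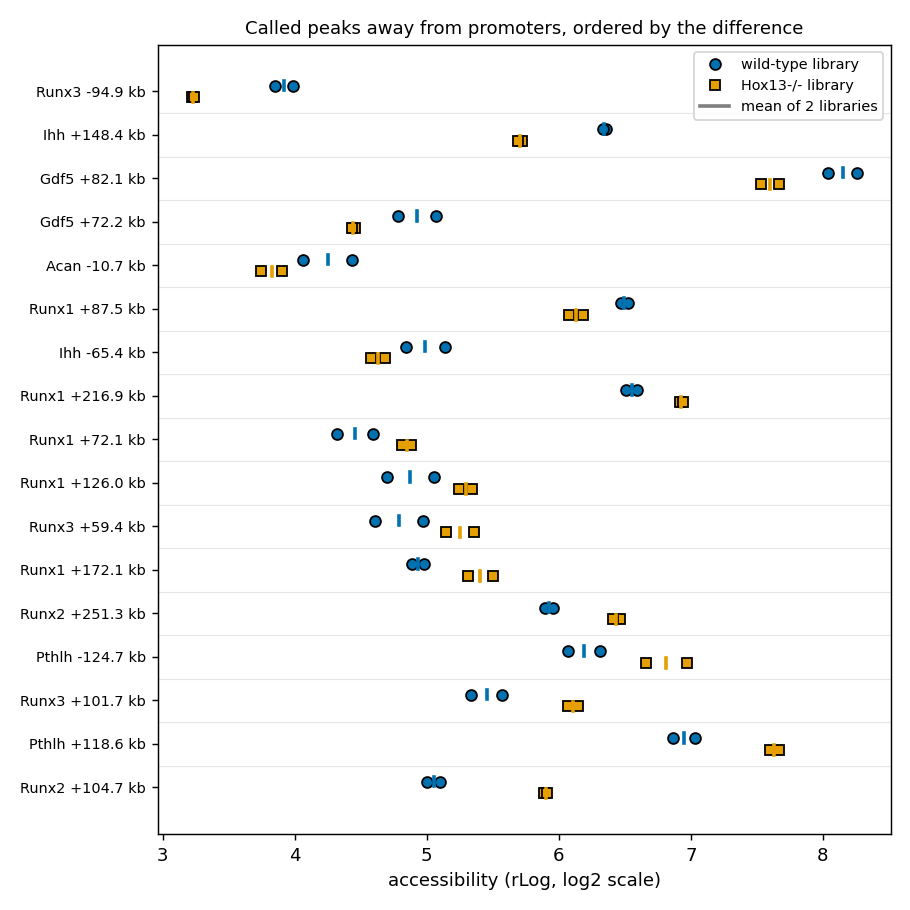
Accessibility (rLog, log2 scale) in each library at the 17 called peaks away from promoters, ordered by the difference, with wild-type libraries as circles, Hox13-/- libraries as squares and the mean of 2 libraries as a short bar. The 7 peaks at the top are lower and the 10 below are higher in Hox13-/-, and at none do the genotypes overlap.

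Acan and Scx had 1 called peak each. The Acan peak lay 10.7 kb upstream in intergenic sequence (chr7:79042671-79042889), the called peak closest to the outermost start of any of the 8 genes. It had 4.07 and 4.43 in wild type against 3.74 and 3.91 in Hox13-/-, without overlap (−0.42, SE 0.13, limma adjusted p = 0.0078). It was −0.24 without wild-type replicate 2 (adjusted p = 0.33) and −0.34 without Hox13-/- replicate 1 (adjusted p = 0.13), neither called. Among the 4 others away from promoters, which differed by −0.16 to 0.13, the peak with the highest wild-type level (63.0 kb upstream) had 5.90 and 6.28 against 6.19 and 6.26, with overlap (0.13, limma adjusted p = 0.49).

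Scx had 27 peaks within 150 kb, more than 94.6% of protein-coding genes (median 10), and 14 of them were promoters of neighbouring genes. The only one called was the promoter of Cyc1, a subunit of the mitochondrial respiratory chain, 113.8 kb upstream (chr15:76343406-76343831). It had 6.32 and 6.69 in wild type against 6.13 and 6.16 in Hox13-/- (−0.36, SE 0.13, limma adjusted p = 0.032). The call held only without wild-type replicate 1. Without wild-type replicate 2, Hox13-/- replicate 1 and Hox13-/- replicate 2 it was −0.17, −0.35 and −0.37 (adjusted p = 0.49, 0.14 and 0.11). Near the gene itself, the most accessible peak away from promoters, 4.7 kb downstream in a Bop1 intron (chr15:76461695-76462666), had 7.04 and 7.31 against 7.29 and 7.37 and overlapped (0.15, limma adjusted p = 0.41). The 12 Scx peaks away from promoters were split evenly, 6 below and 6 above 0, from −0.31 to 0.32. None was called higher (2 at an unadjusted p under 0.05), and 1 was without Hox13-/- replicate 2. With median centring 6 Scx peaks were called lower in place of 1.

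Motif letters in the 300-base windows were counted on both strands beside their share of all peaks. AATAAA was in 27 of the 126 windows (21.4%, against 22.6% of all peaks), and CGTAAA in 2 (1.59%, against 3.61%). Among called peaks AATAAA was in 4 of 9 lower ones, 2 at Gdf5, 1 at Runx1 and 1 at Runx3, and in 1 of 10 higher ones, against 32.2% and 30.1% of all peaks called lower and higher. The RUNX core TGTGGT was in 26 (20.6%, against 18.2%), the SOX core ACAAAG in 16 (12.7%, against 20.1%), the E-box CAGCTG in 31 (24.6%, against 23.3%) and the AP-1 site TGANTCA in 12 (9.52%, against 7.19%). These are counts of letters and no test was run on them.

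For 46 other genes of cartilage, bone, joint and tendon, promoters and gene bodies were counted in the same way. They had 63 promoter peaks at 31 genes, of which 1 (1.59%, against 8.7% of all promoter peaks) was lower and none higher. The lower one was at the transcription factor gene Erg (5.51 and 5.43 against 4.94 and 5.08, −0.46, limma adjusted p = 0.0042). At an unadjusted p under 0.05, 7 of the 63 were lower and none higher, against 3391 and 291 of all 17295 promoter peaks. Inside 24 of the genes lay 184 peaks away from promoters, with 16 lower and 27 higher. These pooled shares of 8.70% and 14.7% are close to the 8.16% and 15.4% of all peaks away from promoters. The genes differed, so the pooled shares do not describe each of them. Sox5 and Sox6, partners of SOX9 in cartilage, held many of the peaks and most of the higher calls. All other higher calls were in Col9a1 (2), Matn3 (2) and Tgfbr2 (1). In Sox5 8 of 42 were higher and 1 lower (−0.39), and in Sox6 14 of 43 were higher and 4 lower. The Sox6 losses ran from −0.89, the largest in the list (4.93 and 5.02 against 3.99 and 4.17, limma adjusted p = 7.4e-10), to −0.36. The receptor gene of the GDF5 signal, Bmpr1b, had 4 of 17 lower, −0.60 to −0.33. A peak in Gdf6, a relative of Gdf5, went from 5.71 and 5.75 to 4.94 and 5.11 (−0.71, limma adjusted p = 2.4e-06), and one in the collagen gene Col9a1 from 5.81 and 5.53 to 6.79 and 6.49 (0.97, limma adjusted p = 9.6e-12). The Erg, Sox5, Sox6, Bmpr1b, Gdf6 and Col9a1 peaks were picked for mention after their values were seen.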

How the data were processed

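ATAC-seq reads of E11.5 forelimb buds were processed by the authors, who per the submitters' processing notes used Bowtie2 2.3.1, SAMtools 1.4.1, MACS2 2.1.1.20160309, HOMER 4.9.1 and DESeq2 with mm10. According to the methods, peaks were called in each library, merged, and compared between genotypes. Whether reads were shifted for Tn5 or duplicates removed is not given in the sources used here. The deposited table holds rLog values (log2 scale, shrunk, adjusted for library size) per library, used here, and the authors' own log2 fold change, p-value and adjusted p-value, which were not used. Shrinkage makes differences at weak peaks smaller than fold changes of counts. Depth per peak is unknown, so no counting interval is given.

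All 61954 peaks were fitted with limma 3.58.1 (R 4.3.3), 1 genotype term and a variance trend, with Benjamini-Hochberg adjustment, and the procedure was tested on simulated data. Each library came from 1 embryo, so the spread that limma shares between peaks comes from embryos within each genotype. A peak's own replicate gap entered its SE and p-value little. The SE was 0.129 at the Wnt10a exon peak, where replicates differed by 0.024 (wild type) and 0.029 (Hox13-/-). It was 0.131 at a Runx2 intron peak 46.1 kb from the start, where the Hox13-/- replicates differed by 0.49. Gene models were GENCODE M21 basic. Sequence came from GRCm38 by pysam 0.24.0, motifs were searched in 300 bases around the midpoint, and figures used matplotlib 3.10.9 with Python 3.11.15 and pandas 2.3.3. Coordinates are printed as the table gives them. The genes, lists and tests were chosen with earlier results of these data known. Peaks named were every promoter peak of a member, the 2 called peaks of smallest p per gene and direction, and the peak away from promoters with the highest wild-type mean per gene. Alternatives were other scalings, filters, thresholds and windows, a replicate block, and omission of each library.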

Additional observations from a re-analysis of the deposited data

How the results depend on the processing

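With each library centred on its median, 15 of the 126 peaks were lower, against 9. Promoter peaks of the 8 genes called lower numbered 2 with median centring, 2 with quantile normalization, 1 with cyclic loess normalization and 2 among the upper 75% of peaks by mean value, against 0. Among the upper 50% of peaks, with fewer peaks tested, lower calls at the 126 peaks stayed at 9. Those away from promoters numbered 4, against 7, so more of the 9 were at promoters of the 8 genes or of neighbours. Over all peaks 3268 were lower, against 5146. At an adjusted p under 0.01, 5 of the 126 were lower, and 2711 of all peaks. Beyond 2-fold none of the 126 was lower or higher, and 139 and 194 of all peaks were. With a 50 kb window, 2 were lower and 6 higher, all away from promoters. With 1 library left out, lower calls ranged from 4 to 8 of the 126 (promoters 0 to 1, away 4 to 5, all peaks 2865 to 3552) and higher calls from 6 to 8 (away 6 to 8, all peaks 4650 to 5008). In each of these fits the lone library is assumed to vary like the other genotype. Among the peaks named by the rule, differences that changed sign were all at peaks not called. The other uncalled peaks were not checked for this. The Acan peak 63.0 kb upstream ranged from −0.055 to 0.32 with 1 library left out, the Acan promoter from −0.37 to 0.13, the Ihh peak 143.4 kb downstream from −0.10 to 0.16 and −0.0073 with median centring, and the inner Runx3 promoter from −0.068 to 0.021. The second Pthlh promoter peak ranged from −0.053 to 0.081, and was −0.021, −0.0034 and −0.013 with median centring, quantile and cyclic loess normalization. All 19 calls were kept under these 3 scalings, without the variance trend and with the replicate number as a block. Lower and higher calls stayed at 9 and 10 with the block and were 9 and 11 without the variance trend. Deviations of same-numbered libraries from their group means correlated at −0.011 over peaks. The labels do not say whether these libraries were paired, and the correlation cannot settle it. The block moved the calls over all peaks to 4967 lower and 7013 higher. The causes of these shifts were not tested. Depth per peak is unknown and 2 libraries per genotype limit all calls.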
